A study of Mus musculus with 21 samples.

Results

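RNA-seq counts from hepatocyte-like cells made from neonatal skin fibroblasts (NSF-CiHeps, 3 libraries) were compared with those from cells made from mouse embryonic fibroblasts by an earlier chemical protocol (C6FAE-C6F(L), 4 libraries). The libraries were assigned to these groups by their labels and make up 7 of the 21 libraries of the series, which holds 7 groups. All 18605 genes that passed a filter on low counts, out of 54532 in the deposited tables, were tested between the groups. The cells of both groups are labelled wild type and were first kept for 4 days in a medium with serum, serum replacement and 50 ng/ml bFGF. Both media held CHIR99021 at 20 µM to activate Wnt signalling through GSK3, and 616452 at 10 µM to block TGF-beta receptors. They also held Forskolin at 50 µM, which raises cAMP, and EPZ004777 at 5 µM, which blocks the histone methyltransferase DOT1L. AM580 (0.05 µM), an agonist of retinoic acid receptors, completed the mixture for C6FAE-C6F(L). For NSF-CiHeps its place was taken by the agonist CH55 (1 µM) and by UNC0638 (0.05 µM), which blocks the histone methyltransferases GLP and G9a. From day 4, each group was kept in a hepatocyte medium with 10% serum, 1 µM dexamethasone, 10 mM nicotinamide, 10 ng/ml FGF4, 20 ng/ml HGF and 20 ng/ml EGF. CHIR99021, 616452 and Forskolin stayed at their first doses for 4 days and were then lowered to 3, 2 and 2 µM. The medium of NSF-CiHeps held 50 µg/ml vitamin C in this stage. The sources used here do not state strain, sex, pooling of animals or the day of collection.

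The groups differ in tissue of origin (embryo or neonatal skin), in the compounds and in the table in which their counts were deposited, so the contributions of these cannot be told apart. As references, C6F5UE-C6F(L)V are cells from embryonic fibroblasts given the same compounds as NSF-CiHeps (3 libraries). Untreated embryonic fibroblasts (MEF, 3 libraries) mark the start of C6FAE-C6F(L). They are also the type of cell from which C6F5UE-C6F(L)V was made, but the counts of that group were deposited in another table. Hepatocytes kept in culture for 2 days (pHeps, 2 libraries) mark the target. The series holds no library of untreated skin fibroblasts, so the start of NSF-CiHeps is missing. The labels do not say that replicates are separate cultures or animals, so the p-values measure only the spread between libraries. That spread was estimated over all 21 libraries of the 7 groups, not from the 7 compared libraries alone.

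Hepatocytes secrete albumin, apolipoproteins and clotting and acute phase proteins, and hold the enzymes of the urea cycle, amino acid breakdown, drug oxidation and bile acid handling. A network of transcription factors that includes Hnf4a, Foxa2, Cebpa and the nuclear receptors keeps these genes active. Stratified epithelia such as the epidermis rest on basal cells with keratins 5 and 14 and the factor p63 (Trp63), held together by desmosomes. The intestinal epithelium is specified by Cdx2 and makes mucins, antimicrobial lectins and transporters of bile acids and nutrients. Fibroblasts are known by their collagens and other matrix proteins.

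Total counts ran from 11479659 to 12147422 in NSF-CiHeps and from 10826546 to 11407072 in C6FAE-C6F(L). Expression levels are CPM values, counts scaled by library size with TMM factors, given for replicates 1 to 3 of NSF-CiHeps and 1 to 4 of C6FAE-C6F(L) in that order. Replicate 4 of C6FAE-C6F(L) stood apart. On the second principal component of the 7 libraries, which held 14.11% of the variance, it lay at 97.11 and the other 6 libraries lay between -50.75 and 13.19. Its ribosomal protein genes took 3.42% of counts, against 7.21% to 8.80% in the other libraries of its group and 4.73% to 5.81% in NSF-CiHeps. The first component, with 61.96%, separated the groups. Mitochondrially encoded genes took 2.49% ± 0.18 of counts in NSF-CiHeps (SD, n = 3) and 1.13% ± 0.24 in C6FAE-C6F(L) (SD, n = 4), with no overlap (exact two-sided permutation p = 0.0571, the smallest that 3 against 4 libraries allow).

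A gene was called when the quasi-likelihood F test of edgeR gave an adjusted p below 0.05 and a log2 fold change of at least 1 in size, coded as NSF-CiHeps minus C6FAE-C6F(L). In NSF-CiHeps, 1646 genes were called higher (8.85% of those tested) and 2913 lower (15.7%). A fit to the 7 libraries alone, which tested 14715 genes, called 1042 higher and 1939 lower. Without replicate 4 of C6FAE-C6F(L), 1836 were higher and 3007 lower. The median log2 fold change of all genes tested was -0.02. For 7100 genes (38.2%) the values of the groups did not overlap, with NSF-CiHeps the higher group for 18.7% of genes and the lower for 19.4%. Of 1171 genes tested that encode transcription factors, 78 were called higher and 214 lower.

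**Figure D1:**
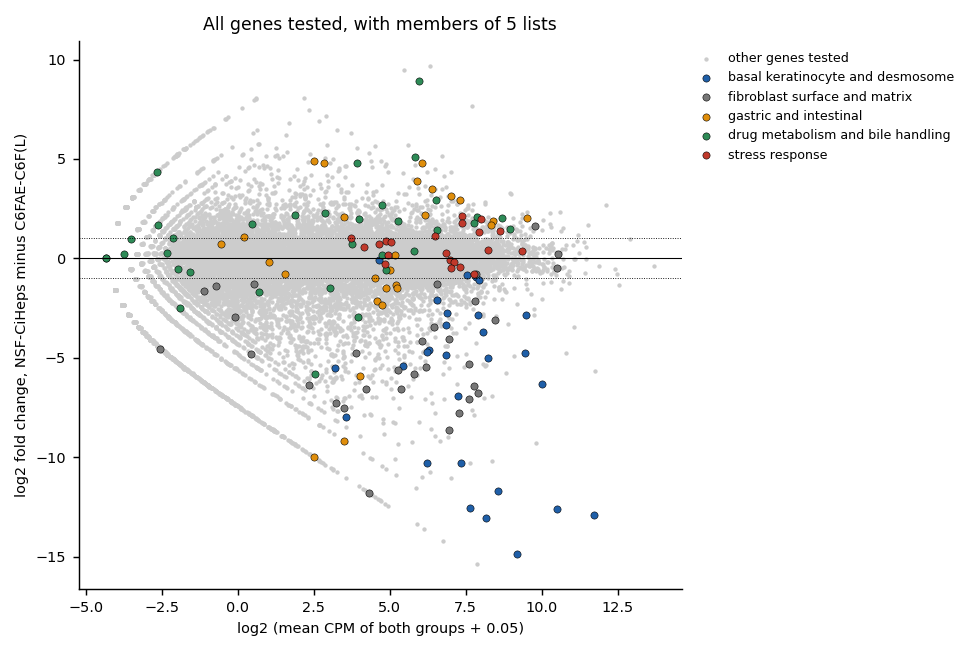
Log2 fold change of each gene tested (vertical axis, NSF-CiHeps minus C6FAE-C6F(L)) against the log2 of its mean CPM in the groups plus 0.05 (horizontal axis), with members of 5 gene lists in colour and dotted lines at a log2 fold change of 1 in size. The keratinocyte and fibroblast members lie mostly far below 0, while the members of the intestinal and drug metabolism lists lie on both sides of it and more often above.

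Genes of basal keratinocytes were high in C6FAE-C6F(L) and low in NSF-CiHeps. Of 28 members tested, 25 were lower in NSF-CiHeps and 0 higher, and their median log2 fold change was -4.93. DESeq2 called 25 members. Krt5, a keratin of basal cells, stood at 1.42, 1.23 and 0 CPM in NSF-CiHeps and 4565, 7976, 9421 and 5119 CPM in C6FAE-C6F(L) (log2 fold change -12.90 ± 1.16, adjusted p = 4.2e-07). The levels of Krt14, the partner of Krt5, were 0.158, 1.06 and 0.159 CPM in NSF-CiHeps and 1289.7, 1320.4, 2079 and 6777 CPM in C6FAE-C6F(L) (log2 fold change -12.63 ± 1.26, adjusted p = 7.2e-07). Every C6FAE-C6F(L) library was above every NSF-CiHeps library for both keratins, as the rule for naming the widest falls requires. Without overlap were 24 of the 28 members, against 38.2% of all genes tested. Col17a1, a collagen of the hemidesmosomes that anchor basal cells, was at 0.0789, 0 and 0 CPM in NSF-CiHeps and 691, 1282, 1536 and 1159.9 CPM in C6FAE-C6F(L). That was 1 count over the NSF-CiHeps libraries, a ratio of 42369 (exact 95% interval 7604 to 1673540.0). Trp63, the transcription factor of basal cells, was at 0.7103, 1.15 and 14.3 CPM in NSF-CiHeps and 95.9, 152, 195 and 132 CPM in C6FAE-C6F(L) (log2 fold change -4.73 ± 0.73, adjusted p = 9.6e-05). NSF-CiHeps replicate 3 held the highest Trp63 level of its group and yet the lowest Krt5 level. Among the markers of this cell type, Dsg3, a desmosomal cadherin, stood at 0.316, 0 and 0.319 CPM in NSF-CiHeps and 433, 1069, 782 and 729 CPM in C6FAE-C6F(L) (log2 fold change -11.68, adjusted p = 2.2e-08), and Krt15 at 32.99, 88.6 and 25.6 CPM in NSF-CiHeps and 1451, 1545, 2134 and 209 CPM in C6FAE-C6F(L) (log2 fold change -4.77, adjusted p = 4.0e-05).

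The summed level of this list was 14458 to 25744 CPM in C6FAE-C6F(L) and 686 to 1188 CPM in NSF-CiHeps. In the deposited table that holds C6FAE-C6F(L), it was 173 to 178 CPM in MEF, 685 to 744 CPM in MEF given only the first mixture (C6FAE), and 266 to 641 CPM in MEF given only the hepatocyte medium with compounds (C6F(L)). In C6F5UE-C6F(L)V it was 638 to 793 CPM. The high level was thus found in 1 of the 4 groups of that table and not in the others. In bulk RNA, fewer cells of a type and less RNA per cell cannot be told apart, here or in the results that follow.

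**Figure D2:**
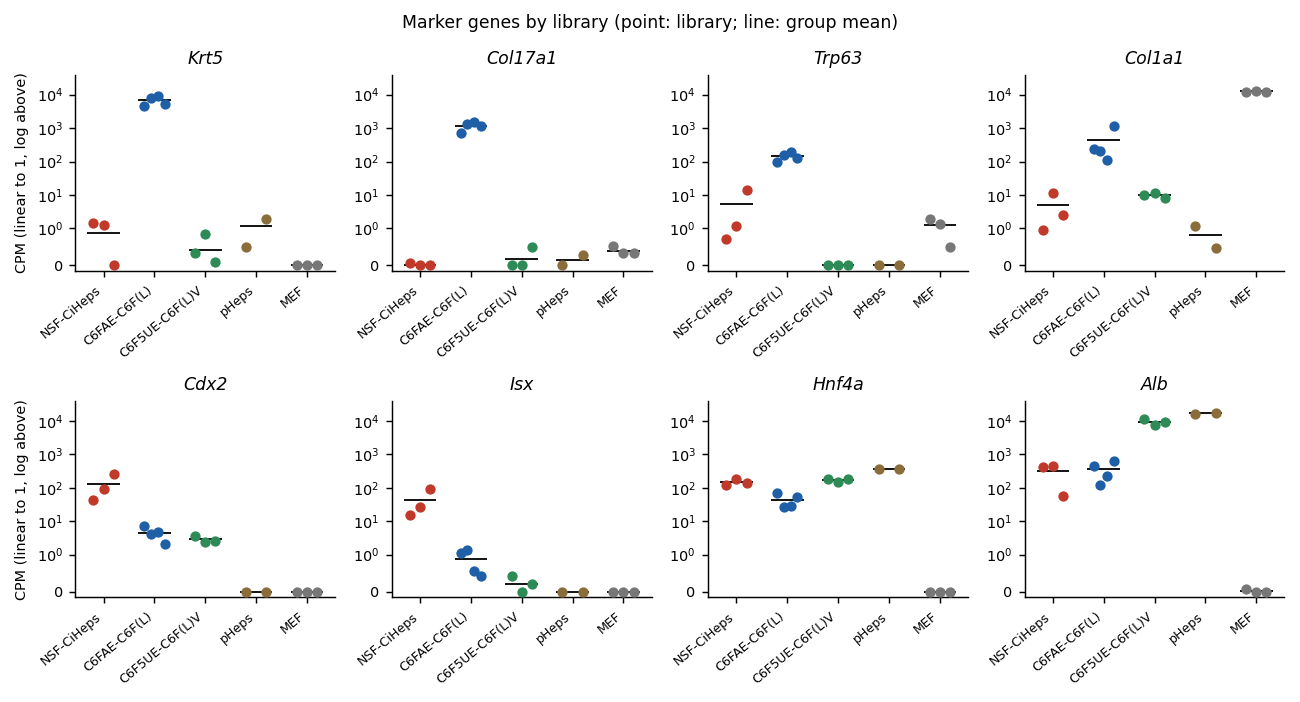
Expression of 8 marker genes in every library of 5 groups (vertical axis, CPM, linear up to 1 and logarithmic above; each point a library, each line a group mean). Krt5, Col17a1, Trp63 and Col1a1 are high in all 4 C6FAE-C6F(L) libraries, Cdx2 and Isx in all 3 NSF-CiHeps libraries, and the Alb values of the groups overlap below those of C6F5UE-C6F(L)V and pHeps.

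Genes of the outer, cornifying layers followed the same direction, with 22 of 28 tested lower, 0 higher and a median of -4.90. Calml3, a calmodulin-like protein of keratinocytes, had no counts in NSF-CiHeps and stood at 74.6, 246, 146 and 3.66 CPM in C6FAE-C6F(L), at least 1378-fold higher there. Spink5, which encodes a protease inhibitor of the epidermal barrier, likewise had no counts in NSF-CiHeps and stood at 52.9, 56.6, 63.1 and 389 CPM in C6FAE-C6F(L), at least 1774-fold higher there. These bounds set 3 counts over the group in place of 0. The summed level of the list was 6621 to 21794 CPM in C6FAE-C6F(L), 643 to 1792 CPM in NSF-CiHeps and 5302 to 5772 CPM in pHeps. Krtdap, a keratinocyte differentiation protein, was also without counts in NSF-CiHeps and at least 448-fold higher in C6FAE-C6F(L). Replicate 4 of C6FAE-C6F(L) was the highest library for Spink5 and the lowest for Calml3. Of the other genes with the widest falls, Tmprss11b, a membrane serine protease of squamous epithelia, was at 334, 842, 618 and 63.9 CPM in C6FAE-C6F(L) and had no counts in NSF-CiHeps, at least 5477-fold lower. Duox1, a peroxide-producing oxidase of epithelia, was at 32.8, 70.8, 61.7 and 43.6 CPM against no counts, at least 628-fold lower. Krt6b and Krt17, keratins of activated epidermis and skin appendages, had 2 counts each over the NSF-CiHeps libraries. Their C6FAE-C6F(L) levels were 386, 279.8, 554 and 1062 CPM for Krt6b, a ratio of 10644 (exact 95% interval 2946 to 87898), and 343, 179.6, 436 and 634 CPM for Krt17, a ratio of 7407 (exact 95% interval 2050.2 to 61168). Klk10, a kallikrein protease, had no counts in NSF-CiHeps and 11.1, 23.6, 2.98 and 167 CPM in C6FAE-C6F(L), at least 651-fold lower, with replicate 4 the highest. For Lypd5, a member of the Ly6 family, the corresponding levels were 0 and 33.7, 58.2, 27.6 and 125 CPM, at least 759-fold lower.

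Genes of epithelial junctions and adhesion were lower in 24 of 35 members tested and higher in 0 (1 higher without NSF-CiHeps replicate 3), with a median of -1.48. Desmosomal genes were among those lower. Dsc2, a desmosomal cadherin, was at 10.7, 11.7 and 16.97 CPM in NSF-CiHeps and 402, 567, 602 and 527 CPM in C6FAE-C6F(L) (log2 fold change -5.32 ± 0.28, adjusted p = 5.4e-10). The desmosomal plaque gene Pkp1 was at 54.1, 23.3 and 26.1 CPM in NSF-CiHeps and 867, 1287, 1327 and 712 CPM in C6FAE-C6F(L) (log2 fold change -4.92 ± 0.60, adjusted p = 5.8e-06). Cldn1, a tight junction protein of the epidermal barrier, was at 13.3, 0.969 and 0.637 CPM in NSF-CiHeps and 117, 96.8, 75.8 and 233 CPM in C6FAE-C6F(L) (log2 fold change -4.69 ± 0.69, adjusted p = 2.8e-05). Of the general epithelial genes, Cdh1, which encodes E-cadherin, was at 655, 444 and 158 CPM in NSF-CiHeps and 588, 1026, 892 and 547 CPM in C6FAE-C6F(L), and its log2 fold change of -0.87 was below the size for a call (adjusted p = 0.0354). It reached the call without NSF-CiHeps replicate 1 (-1.34) and without C6FAE-C6F(L) replicate 4 (-1.03). Epcam, a surface protein of simple epithelia, was at 143, 190.2 and 203 CPM in NSF-CiHeps and 225, 361, 389 and 85.7 CPM in C6FAE-C6F(L) (log2 fold change -0.57, 95% interval -1.33 to 0.19, adjusted p = 0.209). All 7 libraries thus held both simple epithelial genes, and MEF were at 0.7198 CPM for Cdh1 and 0.172 CPM for Epcam.

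Fibroblast genes were lower in NSF-CiHeps in 24 of 32 members tested and higher in 1, with a median of -4.78. The summed level of the list nevertheless overlapped, at 3620 to 5058 CPM in NSF-CiHeps and 4731 to 16070 CPM in C6FAE-C6F(L). In MEF it was 84870 to 89670 CPM. Col1a1, a chain of type I collagen, was at 0.947, 11.8 and 2.47 CPM in NSF-CiHeps and 242, 209, 109.7 and 1147 CPM in C6FAE-C6F(L) (log2 fold change -6.41 ± 0.87, adjusted p = 1.2e-05). Replicate 4 of C6FAE-C6F(L) held by far the highest value, and without it the log2 fold change was -5.25 (adjusted p = 7.4e-07). DESeq2 gave no adjusted p for Col1a1 or, among other collagens, for Col1a2 and Col6a3. In MEF the mean was 12495 CPM. Thy1, a fibroblast surface protein, was at 0.0789, 2.91 and 0.239 CPM in NSF-CiHeps and 33.3, 20.1, 12.2 and 47.6 CPM in C6FAE-C6F(L) (log2 fold change -4.77 ± 0.61, adjusted p = 7.3e-06). Dpt, a matrix protein of the dermis, had no counts in NSF-CiHeps and 26.9, 22.4, 9.602 and 99.7 CPM in C6FAE-C6F(L), at least 500-fold lower. Vim, an intermediate filament of mesenchymal and many cultured cells, was the member called higher, at 820.02, 1641 and 1496 CPM in NSF-CiHeps and 394, 244, 154 and 911 CPM in C6FAE-C6F(L) (log2 fold change 1.63 ± 0.39, adjusted p = 0.00213, and adjusted p = 0.072 in the fit to the 7 libraries alone). The overlap came from C6FAE-C6F(L) replicate 4. Among the other fibroblast markers, Pdgfrb was at 1.03, 0.705 and 2.87 CPM in NSF-CiHeps and 75.8, 54.8, 36.3 and 138 CPM in C6FAE-C6F(L) (log2 fold change -5.61, adjusted p = 6.7e-07) and Fap was near 0 in both groups, at 0.0789 to 1.05 CPM.

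Regulators of mesenchyme were lower in 9 of 24 members tested and higher in 3. Prrx1, a homeodomain factor of limb and skin mesenchyme, was at 0, 0.969 and 0.319 CPM in NSF-CiHeps and 75.2, 57.7, 33.1 and 148 CPM in C6FAE-C6F(L) (log2 fold change -7.53 ± 0.63, adjusted p = 8.5e-08). Cdh11, a mesenchymal cadherin, was at 0, 0.881 and 3.19 CPM in NSF-CiHeps and 54.2, 42.2, 18.6 and 165 CPM in C6FAE-C6F(L) (log2 fold change -5.67, adjusted p = 1.2e-05). Snai1, a repressor of E-cadherin, was at 0.7103, 1.23 and 3.27 CPM in NSF-CiHeps and 13.2, 5.84, 3.82 and 23.5 CPM in C6FAE-C6F(L) (log2 fold change -2.73, adjusted p = 4.4e-04). In the other direction, Foxf2, a forkhead factor of gut mesenchyme, was at 38.8, 32.5 and 89.5 CPM in NSF-CiHeps and 17.3, 12.2, 12.03 and 14.9 CPM in C6FAE-C6F(L) (log2 fold change 1.93, adjusted p = 2.7e-05). Foxd1, a forkhead factor of stroma, was at 8.76, 6.61 and 10.6 CPM in NSF-CiHeps and 2.802, 1.46, 1.03 and 1.45 CPM in C6FAE-C6F(L) (log2 fold change 2.35, adjusted p = 6.0e-06). Without C6FAE-C6F(L) replicate 4, 5 members were called higher.

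**Figure D3:**
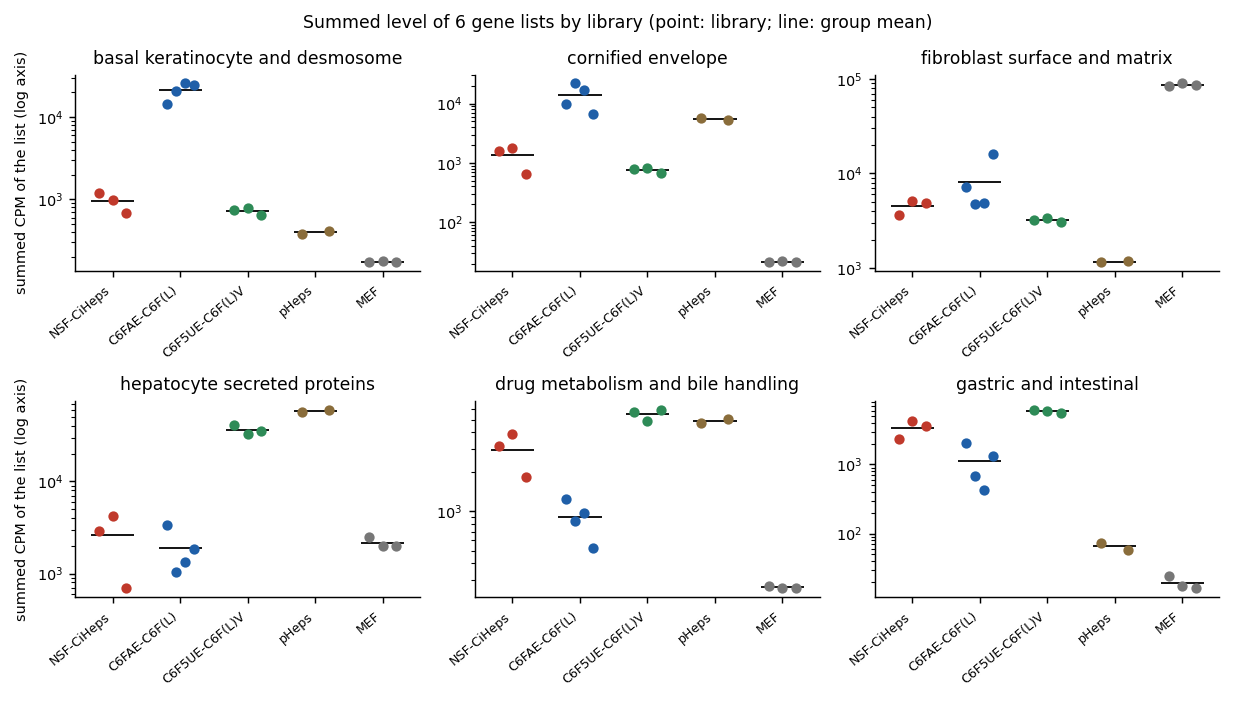
Summed CPM of 6 gene lists in every library of 5 groups (vertical axes logarithmic, each with its own range; each point a library, each line a group mean). The keratinocyte sums of C6FAE-C6F(L) lie above those of the other induced cells, whereas the sums of hepatocyte secreted proteins overlap between NSF-CiHeps and C6FAE-C6F(L).

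Genes for proteins secreted by hepatocytes did not differ in 1 direction. Of 49 tested, 13 were higher in NSF-CiHeps and 6 lower, with a median of 0.67 (0.48 with genes at 0 counts in a group set to their bound). The median turned to -0.54 without NSF-CiHeps replicate 2 and was 0.13 in the 7 libraries alone. Alb, which encodes albumin, was at 427, 443 and 55.4 CPM in NSF-CiHeps and 448, 122, 233 and 616 CPM in C6FAE-C6F(L). NSF-CiHeps replicate 3 held the lowest value of the 7, and the groups overlapped (log2 fold change -0.20, 95% interval -1.43 to 1.03, adjusted p = 0.81). The means in C6F5UE-C6F(L)V and pHeps were 9438 and 17205 CPM, so Alb was low in both groups beside these references. Apoa1, the main apolipoprotein of HDL, was at 1452, 739.8 and 66.3 CPM in NSF-CiHeps and 761, 259, 220.2 and 66.6 CPM in C6FAE-C6F(L) (log2 fold change 1.20, adjusted p = 0.19). It was called higher without NSF-CiHeps replicate 3 (1.75) and without C6FAE-C6F(L) replicate 1 (2.05). Afp, the fetal counterpart of albumin, was at 3.39, 17.3 and 0.0796 CPM in NSF-CiHeps and 47.7, 27.8, 45.4 and 53.8 CPM in C6FAE-C6F(L) (log2 fold change -2.67 ± 0.69, adjusted p = 0.00392, and adjusted p = 0.0897 in the fit to the 7 libraries alone). Its lowest C6FAE-C6F(L) value lay above its highest NSF-CiHeps value.

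Hp, which encodes the haemoglobin-binding protein haptoglobin, was lower, at 16.6, 23.4 and 11.1 CPM in NSF-CiHeps and 304, 51.6, 149 and 162 CPM in C6FAE-C6F(L) (log2 fold change -3.29 ± 0.45, adjusted p = 1.5e-05). Kng1, the precursor of kinins, was at 6.08, 6.34 and 1.43 CPM in NSF-CiHeps and 74.2, 17.6, 37.5 and 14.6 CPM in C6FAE-C6F(L) (log2 fold change -2.97 ± 0.53, adjusted p = 1.9e-04). Itih2, a hyaluronan-binding plasma protein, was higher, at 63.3, 142 and 46.6 CPM in NSF-CiHeps and 11.03, 1.85, 3.64 and 18.3 CPM in C6FAE-C6F(L) (log2 fold change 3.25 ± 0.51, adjusted p = 5.1e-05). Apoc3, an apolipoprotein that slows triglyceride clearance, was at 43.7, 38.1 and 7.73 CPM in NSF-CiHeps and 5.69, 6.42, 1.58 and 0.936 CPM in C6FAE-C6F(L) (log2 fold change 3.04, adjusted p = 6.3e-04). Azgp1, a secreted glycoprotein of liver and fat, was at 22.5, 38.9 and 7.33 CPM in NSF-CiHeps and 6.13, 2.14, 2.89 and 2.55 CPM in C6FAE-C6F(L) (log2 fold change 2.73, adjusted p = 6.5e-04). Serpina1a, an alpha-1-antitrypsin gene, was high in NSF-CiHeps replicate 2 only, at 1.66, 40.4 and 1.75 CPM in NSF-CiHeps and 1.75, 0.487, 0.466 and 5.61 CPM in C6FAE-C6F(L) (log2 fold change 2.76, adjusted p = 0.0245). Without that replicate its log2 fold change was -0.37. Ttr, a thyroid hormone carrier and marker of hepatocytes, was at 98.3, 217 and 11.7 CPM in NSF-CiHeps and 40.02, 5.45, 13.2 and 34.8 CPM in C6FAE-C6F(L) (adjusted p = 0.058). Counts of called members moved with single libraries, to 20 higher and 3 lower without NSF-CiHeps replicate 3, to 6 higher and 10 lower without replicate 2, and to 3 lower without C6FAE-C6F(L) replicate 1. In the fit to the 7 libraries alone they were 5 and 2.

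Of 35 hepatic metabolic enzymes tested, 5 were higher and 9 lower, with a median of -0.53 (0.17 in the 7 libraries alone). Arg1, the last enzyme of the urea cycle, was at 3.24, 0.881 and 1.27 CPM in NSF-CiHeps and 496, 609, 593 and 41.1 CPM in C6FAE-C6F(L) (log2 fold change -7.89 ± 0.78, adjusted p = 4.5e-07), with C6FAE-C6F(L) replicate 4 the lowest of its group and still above all 3 NSF-CiHeps libraries. Cps1, the first enzyme of that cycle, was at 13.97, 7.49 and 7.57 CPM in NSF-CiHeps and 63.8, 7.78, 18.5 and 10.4 CPM in C6FAE-C6F(L) (log2 fold change -1.38, adjusted p = 0.0464). Its call was lost without C6FAE-C6F(L) replicate 1 (log2 fold change -0.33), without NSF-CiHeps replicate 2 or 3, with library size scaling and in the 7 libraries alone (adjusted p 0.0547 to 0.468). Gls2, the liver-type glutaminase, was at 3.87, 2.55 and 2.87 CPM in NSF-CiHeps and 8.76, 11.1, 12.5 and 6.72 CPM in C6FAE-C6F(L) (log2 fold change -1.65, adjusted p = 5.9e-05). Tat and Cyp2e1, markers of mature hepatocytes for tyrosine breakdown and small-molecule oxidation, were low. Tat was at 4.34, 1.41 and 2.23 CPM in NSF-CiHeps and 8.67, 2.43, 5.5004 and 1.62 CPM in C6FAE-C6F(L) (adjusted p = 0.263), and Cyp2e1 reached at most 0.159 CPM in any of the 7 libraries. Counts of called members were 2 higher without NSF-CiHeps replicate 2, 3 higher without C6FAE-C6F(L) replicate 3, 5 lower without NSF-CiHeps replicate 3, and 1 higher and 2 lower in the 7 libraries alone.

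Genes of drug metabolism and bile handling were the hepatic list with the most members higher in NSF-CiHeps, 16 of 34 tested against 3 lower, with a median of 1.23. Cyp3a11, a drug-oxidising cytochrome, was at 83.3, 242 and 5.34 CPM in NSF-CiHeps and 5.52, 2.82, 0.373 and 3.91 CPM in C6FAE-C6F(L) (log2 fold change 5.11 ± 0.89, adjusted p = 3.4e-04). NSF-CiHeps replicate 3 lay just below the highest C6FAE-C6F(L) library. Cyp2c29, a cytochrome of drug and fatty acid oxidation, was at 247, 126 and 0.478 CPM in NSF-CiHeps and 0.263, 0.0973, 0 and 0.595 CPM in C6FAE-C6F(L) (log2 fold change 8.91 ± 1.55, adjusted p = 7.4e-04), high in 2 of 3 NSF-CiHeps libraries. Sult1a1, a sulphotransferase of phenols, was at 144, 231 and 109 CPM in NSF-CiHeps and 44.1, 9.93, 13.1 and 16.4 CPM in C6FAE-C6F(L) (log2 fold change 2.95 ± 0.41, adjusted p = 1.5e-05). Ugt2b5, a glucuronosyltransferase, was at 35.4, 48.8 and 2.95 CPM in NSF-CiHeps and 1.05, 1.46, 0.2797 and 1.36 CPM in C6FAE-C6F(L) (log2 fold change 4.79, adjusted p = 1.3e-04). Cyp7b1, an enzyme of the alternative bile acid pathway, was lower at 0, 0.529 and 0.0796 CPM in NSF-CiHeps and 16.4, 7.49, 2.797 and 18.5 CPM in C6FAE-C6F(L) (log2 fold change -5.80, adjusted p = 3.2e-06). Ugt1a1, which conjugates bilirubin, was at 2.999, 3.35 and 4.14 CPM in NSF-CiHeps and 13.4, 61.3, 33.7 and 0.851 CPM in C6FAE-C6F(L) (log2 fold change -2.96, adjusted p = 0.00906, and adjusted p = 0.0743 in the fit to the 7 libraries alone). The summed level of the list was 1832 to 3925 CPM in NSF-CiHeps, 524 to 1246 CPM in C6FAE-C6F(L) and 4873 to 5964 CPM in C6F5UE-C6F(L)V. The sums of the NSF-CiHeps and C6FAE-C6F(L) libraries did not overlap.

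Of 25 hepatic transcription factors tested, 6 were higher in NSF-CiHeps and 2 lower. Hnf4a, a nuclear receptor central to hepatocyte identity, was at 121, 185 and 136 CPM in NSF-CiHeps and 67.8, 26.6, 28.6 and 53.5 CPM in C6FAE-C6F(L) (log2 fold change 1.74 ± 0.29, adjusted p = 2.2e-04). Foxa2, a forkhead factor of endoderm, was at 88.6, 79.1 and 64.5 CPM in NSF-CiHeps and 48.95, 15.7, 17.4 and 34.1 CPM in C6FAE-C6F(L) (log2 fold change 1.41 ± 0.29, adjusted p = 7.5e-04). For both genes every NSF-CiHeps library lay above every C6FAE-C6F(L) library. Nr1h4, the bile acid receptor FXR, was at 28.9, 58.1 and 34.97 CPM in NSF-CiHeps and 2.36, 0.778, 0.559 and 2.98 CPM in C6FAE-C6F(L) (log2 fold change 4.58 ± 0.46, adjusted p = 4.9e-07). It was at most 3.03 CPM in all 13 libraries of the table that holds C6FAE-C6F(L), and at least 28.2 CPM in all 8 libraries of the other tables. Hhex, a homeodomain factor of the early liver bud, was at 58.2, 101 and 86.3 CPM in NSF-CiHeps and 5.605, 1.56, 2.98 and 6.21 CPM in C6FAE-C6F(L) (log2 fold change 4.31 ± 0.29, adjusted p = 6.9e-09). Nr1i2, the drug-sensing receptor PXR, was at 10.7, 21.1 and 4.38 CPM in NSF-CiHeps and 5.78, 1.85, 2.05 and 2.98 CPM in C6FAE-C6F(L) (log2 fold change 1.92, adjusted p = 0.00587), and without NSF-CiHeps replicate 2 its adjusted p was 0.0535. Onecut2, a factor of hepatic and biliary development, was at 5.84, 22.2 and 18.7 CPM in NSF-CiHeps and 1.93, 0.973, 0.466 and 13.3 CPM in C6FAE-C6F(L) (log2 fold change 1.89, adjusted p = 0.0372). Its call was lost in the fit to the 7 libraries alone and without NSF-CiHeps replicate 2 or 3 or C6FAE-C6F(L) replicate 1, 2 or 3 (adjusted p 0.0831 to 0.205). Cebpa, which drives the metabolic genes of mature hepatocytes and fat cells, was lower at 5.68, 9.78 and 4.62 CPM in NSF-CiHeps and 42.7, 82.6, 69.5 and 46.02 CPM in C6FAE-C6F(L) (log2 fold change -3.17 ± 0.29, adjusted p = 1.8e-07). The mean of Cebpa was 60.2 CPM in C6FAE-C6F(L), 52.6 CPM in MEF, 7.55 CPM in C6FAE, 36.1 CPM in C6F(L) and 52.3 CPM in pHeps. As untreated fibroblasts held it too, its level does not by itself mark a hepatic state. Hnf4a and Cebpa thus lay in opposite directions, each without overlap.

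Genes of fetal liver and biliary progenitors divided, with 9 of 23 tested higher and 7 lower. Krt18, a keratin of simple epithelia including hepatocytes, was at 1868, 3253 and 967 CPM in NSF-CiHeps and 483, 433, 384 and 369 CPM in C6FAE-C6F(L) (log2 fold change 2.28 ± 0.28, adjusted p = 5.3e-06). Tspan8, a tetraspanin of gut and biliary epithelium, was at 904, 1456 and 1321 CPM in NSF-CiHeps and 333, 219, 224 and 203 CPM in C6FAE-C6F(L) (log2 fold change 2.33 ± 0.20, adjusted p = 1.3e-07). Cftr, the chloride channel of ductal epithelia, was at 47.7, 40.4 and 81.4 CPM in NSF-CiHeps and 12.4, 7.88, 15.4 and 3.49 CPM in C6FAE-C6F(L) (log2 fold change 2.53, adjusted p = 5.5e-05), and its mean in C6F5UE-C6F(L)V was 0.127 CPM. Dlk1, a Notch-related surface protein of hepatoblasts, was lower at 0.395, 1.76 and 2.15 CPM in NSF-CiHeps and 171, 52.1, 39.5 and 38.2 CPM in C6FAE-C6F(L) (log2 fold change -5.71 ± 0.59, adjusted p = 1.0e-06). Gpc3, a heparan sulphate proteoglycan of fetal liver, was at 0.316, 11.8 and 0.0796 CPM in NSF-CiHeps and 127, 59.1, 38.7 and 112 CPM in C6FAE-C6F(L) (log2 fold change -4.40, adjusted p = 2.1e-04). Dlk1 and Gpc3 were also high in MEF, at 424 and 168 CPM. In the fit to the 7 libraries alone 4 members were lower.

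Genes of the gastrointestinal epithelium were higher in 9 of 27 members tested and lower in 5, with a median of 0.71. Without NSF-CiHeps replicate 2 they were higher in 7 and lower in 7, and the median turned to -0.50. In the 7 libraries alone the median was -0.03. Summed over the list, levels were highest in C6F5UE-C6F(L)V, at 5573 to 6190 CPM. The sums of NSF-CiHeps were 2364 to 4281 CPM and those of C6FAE-C6F(L) 432 to 2037 CPM. A high sum was thus not particular to NSF-CiHeps. Cdx2, the transcription factor that specifies intestine, was at 42.9, 90.9 and 252 CPM in NSF-CiHeps and 7.01, 4.28, 4.85 and 2.13 CPM in C6FAE-C6F(L) (log2 fold change 4.82 ± 0.53, adjusted p = 1.1e-05), and at a mean of 2.84 CPM in C6F5UE-C6F(L)V. Isx, an intestinal homeodomain factor, was at 15.9, 25.9 and 90.8 CPM in NSF-CiHeps and 1.14, 1.36, 0.559 and 0.425 CPM in C6FAE-C6F(L) (log2 fold change 5.66 ± 0.64, adjusted p = 6.2e-06). NSF-CiHeps replicate 3, the lowest library for Alb, was the highest for Cdx2 and Isx. Muc13, a transmembrane mucin, was at 56.9, 83.6 and 195 CPM in NSF-CiHeps and 11.03, 12.9, 4.75 and 1.19 CPM in C6FAE-C6F(L) (log2 fold change 3.91, adjusted p = 4.2e-05). Muc3, another transmembrane mucin, was at 71.3, 114 and 97.5 CPM in NSF-CiHeps and 0.876, 6.52, 0.0932 and 0 CPM in C6FAE-C6F(L) (log2 fold change 5.68 ± 0.97, adjusted p = 4.9e-04). Slc51a and Slc51b encode the subunits of the basolateral bile acid exporter of the ileum. Slc51a stood at 36.6, 35.4 and 44.4 CPM in NSF-CiHeps and 0.876, 2.24, 0.373 and 0.425 CPM in C6FAE-C6F(L) (log2 fold change 5.31 ± 0.55, adjusted p = 2.8e-06). Slc51b stood at 12.1, 14.4 and 17.2 CPM in NSF-CiHeps and 0, 0.389, 0 and 0 CPM in C6FAE-C6F(L) (log2 fold change 7.15 ± 0.76, adjusted p = 1.3e-05). Both were present in all 3 NSF-CiHeps libraries and at 2.24 CPM or less in C6FAE-C6F(L). Olfm4, a marker of intestinal crypts, was at 5.68, 16.9 and 18.9 CPM in NSF-CiHeps and 1.49, 0, 0.466 and 0 CPM in C6FAE-C6F(L) (log2 fold change 4.78, adjusted p = 6.5e-04). Reg3b, an antimicrobial lectin, was at 2.21, 449 and 25.5 CPM in NSF-CiHeps and 0.613, 0, 0.0932 and 0 CPM in C6FAE-C6F(L) (log2 fold change 9.69 ± 1.65, adjusted p = 2.3e-04), with replicate 2 far above the others. Its relative Reg3g followed at 0.237, 31.98 and 0.319 CPM in NSF-CiHeps and 1.23, 0, 0 and 0.1701 CPM in C6FAE-C6F(L) (log2 fold change 4.88, adjusted p = 0.0101), and without NSF-CiHeps replicate 2 it reversed to -0.40. Car1, a carbonic anhydrase of colon and red cells, was at 5.998, 7.14 and 253 CPM in NSF-CiHeps and 0.175, 0.292, 0 and 0 CPM in C6FAE-C6F(L) (log2 fold change 9.48 ± 1.81, adjusted p = 0.00241). Replicate 3 held most of it, without which the log2 fold change was 5.72 (adjusted p = 9.69e-04), and DESeq2 gave no adjusted p.

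Stomach genes lay in both directions. Gkn1, a secreted protein of gastric surface cells, was at 595, 761 and 128 CPM in NSF-CiHeps and 339, 132, 13.5 and 123 CPM in C6FAE-C6F(L) (log2 fold change 1.70, adjusted p = 0.0536). It was called without NSF-CiHeps replicate 3 (2.16) and without C6FAE-C6F(L) replicate 1 (2.46). The related marker Gkn2 was at 643, 814 and 133 CPM in NSF-CiHeps and 254, 94.2, 14.3 and 204 CPM in C6FAE-C6F(L) (log2 fold change 1.90, adjusted p = 0.0419). Muc5ac, the surface mucin, was at 17.8, 26.6 and 1.91 CPM in NSF-CiHeps and 45.98, 27.6, 28.8 and 68.1 CPM in C6FAE-C6F(L) (adjusted p = 0.0539), and Tff2, a trefoil peptide of gastric neck cells, at 20.6, 39.03 and 3.505 CPM in NSF-CiHeps and 152, 7.78, 17.2 and 33.2 CPM in C6FAE-C6F(L) (adjusted p = 0.233). Muc6, the gland mucin, was lower at 0.947, 0.4405 and 0.159 CPM in NSF-CiHeps and 83.9, 7.88, 34.7 and 0.0851 CPM in C6FAE-C6F(L) (log2 fold change -5.90, adjusted p = 9.6e-04), with replicate 4 of C6FAE-C6F(L) at the level of NSF-CiHeps. Lyz1, a lysozyme of Paneth and gastric cells, was at 70.9, 8.47, 9.51 and 1.28 CPM in C6FAE-C6F(L) and had 1 count in NSF-CiHeps, a ratio of 839.5 (exact 95% interval 150.3 to 33192). Sox2, a factor of stomach and squamous foregut epithelium, was at 9.37, 20.3, 13.98 and 1.79 CPM in C6FAE-C6F(L) and had no counts in NSF-CiHeps, at least 134-fold lower. In the fit to the 7 libraries alone 3 members of the list were lower.

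Extraembryonic endoderm genes, which mark an intermediate of chemical reprogramming, were lower in 14 of 25 members tested and higher in 1, Foxa2 (7 lower in the 7 libraries alone, and 2 higher without NSF-CiHeps replicate 3 or C6FAE-C6F(L) replicate 1). The median was -1.86, or -1.23 with genes at 0 counts set to their bound. The summed level of the list was 1197 to 1899 CPM in NSF-CiHeps and 1784 to 6772 CPM in C6FAE-C6F(L). It was higher in untreated MEF, at 12950 to 13810 CPM, and in C6F(L), at 14736 to 14901 CPM. The list thus holds genes that are high in fibroblasts, and its level does not mark that intermediate alone. Sox17, an endoderm factor, was at 60.9, 26.7 and 8.36 CPM in NSF-CiHeps and 56.8, 24.3, 15.1 and 27.6 CPM in C6FAE-C6F(L) (log2 fold change 0.05, 95% interval -0.94 to 1.03, adjusted p = 0.959). Sall4, a factor of early embryo and extraembryonic endoderm, was low in both groups but called lower, with no counts in NSF-CiHeps and 1.401, 0.292, 0 and 1.96 CPM in C6FAE-C6F(L), at least 11-fold lower. Sox7, an endoderm factor related to Sox17, was at 0.316, 0.352 and 0 CPM in NSF-CiHeps and 4.47, 6.42, 9.14 and 2.21 CPM in C6FAE-C6F(L) (log2 fold change -4.59, adjusted p = 6.5e-05). Lama1, a basement membrane laminin chain, was at 0.789, 0.793 and 2.79 CPM in NSF-CiHeps and 149.8, 4.48, 1.68 and 27.1 CPM in C6FAE-C6F(L) (log2 fold change -4.95, adjusted p = 0.00151, and adjusted p = 0.0521 in the fit to the 7 libraries alone). Pdgfra, a receptor shared with fibroblasts, was at 0.631, 0.969 and 0.956 CPM in NSF-CiHeps and 100.01, 49.4, 25.6 and 151 CPM in C6FAE-C6F(L) (log2 fold change -6.57, adjusted p = 1.3e-07), and 321 CPM on average in MEF.

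Hox genes record position along the body axis. Of 34 tested, 4 were lower in NSF-CiHeps and 1 higher, shares below those of all genes. Hoxb7 was at 2.68, 4.405 and 3.74 CPM in NSF-CiHeps and 13.7, 16.5, 12.7 and 20.4 CPM in C6FAE-C6F(L) (log2 fold change -2.13 ± 0.26, adjusted p = 3.8e-06). Its neighbour Hoxb8 was at 2.13, 2.91 and 4.86 CPM in NSF-CiHeps and 13.1, 21.5, 19.4 and 19.8 CPM in C6FAE-C6F(L) (log2 fold change -2.48 ± 0.25, adjusted p = 6.4e-07). Neither gene overlapped between the groups. Hoxa11, a gene of limb and posterior trunk, was at 3.59, 1.75, 1.96 and 2.89 CPM in C6FAE-C6F(L) and had 2 counts in NSF-CiHeps, a ratio of 47.2 (exact 95% interval 12.8 to 394). Hoxd11 and Hoxd3 were called below 1 CPM, Hoxd11 lower and Hoxd3 higher. Hoxd11 lost its call without any of the NSF-CiHeps replicates or without C6FAE-C6F(L) replicate 1, and Hoxd3 in 8 of the 12 alternatives that tested it. Hoxc6 was at 71.7, 93.9 and 83.3 CPM in NSF-CiHeps and 48.1, 32.3, 48.6 and 53.6 CPM in C6FAE-C6F(L), without overlap, and Hoxc9 at 24.1, 43.4 and 27.96 CPM in NSF-CiHeps and 16.8, 23.5, 17.2 and 14.9 CPM in C6FAE-C6F(L), also without overlap. Their log2 fold changes of 0.86 (adjusted p = 7.8e-05) and 0.81 (adjusted p = 0.00601) were below the size for a call. Of the other members tested, Hoxa10, Hoxa13, Hoxa2, Hoxa3, Hoxa4, Hoxa5, Hoxa6, Hoxa7, Hoxa9, Hoxb2, Hoxb3, Hoxb4, Hoxb5, Hoxb6, Hoxb9, Hoxc10, Hoxc11, Hoxc13, Hoxc4, Hoxc5, Hoxc8, Hoxd1, Hoxd10, Hoxd13, Hoxd8 and Hoxd9, were not called. Where both groups held more than 3 counts, their log2 fold changes ran from -1.52 to 0.61.

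Other genes of limb, trunk and skin patterning were lower in 19 of 45 members tested and higher in 4 (9 and 1 in the 7 libraries alone). Irx1, an Iroquois homeodomain factor, was at 10.2, 5.25, 3.45 and 12.1 CPM in C6FAE-C6F(L) and had no counts in NSF-CiHeps, at least 96-fold lower. Hand2, a factor of heart, limb and ventral mesenchyme, was at 0.237, 0.264 and 0.239 CPM in NSF-CiHeps and 11.03, 6.03, 5.59 and 18.6 CPM in C6FAE-C6F(L) (log2 fold change -5.33, adjusted p = 7.6e-07). Barx2, a homeodomain factor of epithelia, was at 1.74, 1.32 and 2.07 CPM in NSF-CiHeps and 26.01, 61.4, 46.6 and 11.8 CPM in C6FAE-C6F(L) (log2 fold change -4.40, adjusted p = 1.2e-05). Pax9, a factor of pharyngeal pouches and teeth, was higher at 15.6, 9.25 and 19.4 CPM in NSF-CiHeps and 3.59, 0.584, 2.52 and 1.45 CPM in C6FAE-C6F(L) (log2 fold change 2.85 ± 0.46, adjusted p = 7.7e-05). Irx3 was at 28.4, 22.9 and 27.7 CPM in NSF-CiHeps and 5.52, 21.6, 6.15 and 12.8 CPM in C6FAE-C6F(L) (log2 fold change 1.20, adjusted p = 0.00414, and adjusted p = 0.089 in the fit to the 7 libraries alone), and its log2 fold change fell just under 1 without C6FAE-C6F(L) replicate 1 (0.96) or replicate 3 (0.95).

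The compounds of the protocols act on retinoic acid, Wnt, TGF-beta, cAMP and glucocorticoid signalling. Retinoic acid is carried in the cell by binding proteins, made by retinol and retinal dehydrogenases and removed by the Cyp26 enzymes. Of 22 response genes tested, 5 were higher and 9 lower. Tgm2, a transglutaminase induced by retinoic acid, was at 359, 597 and 504 CPM in NSF-CiHeps and 122, 61.6, 50.9 and 59.03 CPM in C6FAE-C6F(L) (log2 fold change 2.73 ± 0.24, adjusted p = 1.1e-07). Rdh10, which oxidises retinol, was at 387, 287 and 138 CPM in NSF-CiHeps and 103, 78.1, 95.5 and 42.96 CPM in C6FAE-C6F(L) (log2 fold change 1.76 ± 0.28, adjusted p = 5.7e-05). The intestinal retinol carrier Rbp2 was at 159.6, 309 and 243 CPM in NSF-CiHeps and 139, 39.5, 32.8 and 70.9 CPM in C6FAE-C6F(L) (log2 fold change 1.75, adjusted p = 0.00234). In the other direction, the retinoic acid-binding protein Crabp1 was at 0.474, 0.352 and 0.0796 CPM in NSF-CiHeps and 12.7, 9.05, 4.29 and 24.4 CPM in C6FAE-C6F(L) (log2 fold change -5.34, adjusted p = 2.9e-06). Its relative Crabp2 was at 0.316, 0.705 and 0.0796 CPM in NSF-CiHeps and 4.204, 9.05, 7.92 and 11.6 CPM in C6FAE-C6F(L) (log2 fold change -4.47, adjusted p = 1.2e-06). Aldh1a3, which makes retinoic acid from retinal, was at 2.999, 4.405 and 11.3 CPM in NSF-CiHeps and 32.6, 47.5, 43.1 and 106 CPM in C6FAE-C6F(L) (log2 fold change -3.19, adjusted p = 5.5e-05). Rarres2, the precursor of the chemoattractant chemerin, was at 0, 0.4405 and 0 CPM in NSF-CiHeps and 34.7, 12.4, 8.76 and 3.998 CPM in C6FAE-C6F(L) (log2 fold change -6.65, adjusted p = 6.2e-06). Rbp2 was thus higher and both retinoic acid-binding proteins lower, in each case without overlap.

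Of 28 Wnt targets and feedback genes tested, 5 were higher and 8 lower. Sp5, a direct Wnt target, was at 7.498, 6.08 and 12.3 CPM in NSF-CiHeps and 3.24, 1.75, 2.89 and 1.02 CPM in C6FAE-C6F(L) (log2 fold change 1.95, adjusted p = 0.0011). Rnf43, a ligase that removes Wnt receptors, was at 44.3, 57.4 and 84.1 CPM in NSF-CiHeps and 26.9, 25.3, 25.5 and 26.3 CPM in C6FAE-C6F(L) (log2 fold change 1.25, adjusted p = 8.6e-05), and without NSF-CiHeps replicate 3 the log2 fold change was 0.97. Cdx2, given above, is also on this list. Bambi, a decoy receptor, was at 6.47, 7.31 and 15.5 CPM in NSF-CiHeps and 6.39, 2.72, 3.08 and 3.57 CPM in C6FAE-C6F(L) (log2 fold change 1.30, adjusted p = 0.0017), and its call was lost without NSF-CiHeps replicate 3 (0.80) and in the 7 libraries alone (adjusted p = 0.0567). Wif1, a secreted antagonist, was at 11.4, 3.02, 4.01 and 22.1 CPM in C6FAE-C6F(L) and had 2 counts in NSF-CiHeps, a ratio of 192 (exact 95% interval 52.9 to 1591). Sfrp1, another antagonist, was at 0.552, 2.91 and 2.07 CPM in NSF-CiHeps and 38.8, 33.7, 12.3 and 40.5 CPM in C6FAE-C6F(L) (log2 fold change -4.10, adjusted p = 1.9e-06). Nkd2, an intracellular inhibitor, was at 6.92, 5.74, 3.82 and 17.4 CPM in C6FAE-C6F(L) against 1 count, a ratio of 318 (exact 95% interval 56.7 to 12589.7). The count of members called higher was 2 without NSF-CiHeps replicate 3 and 3 in the 7 libraries alone.

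TGF-beta and contractile targets were lower in 10 of 24 members tested and higher in 3 (1 in the 7 libraries alone). Myh11, the myosin of smooth muscle, was at 0.316, 0.881 and 1.04 CPM in NSF-CiHeps and 13.4, 17.03, 9.79 and 33.6 CPM in C6FAE-C6F(L) (log2 fold change -4.62, adjusted p = 5.8e-07). Fstl3, a secreted inhibitor of activin, was at 0.631, 0.881 and 1.04 CPM in NSF-CiHeps and 7.01, 9.24, 8.204 and 11.2 CPM in C6FAE-C6F(L) (log2 fold change -3.38, adjusted p = 4.6e-07). Tpm1, a tropomyosin, was higher at 639, 713 and 849.9 CPM in NSF-CiHeps and 220.3, 173, 164 and 503 CPM in C6FAE-C6F(L) (log2 fold change 1.47, adjusted p = 2.2e-04). Tgfbi, a secreted matrix protein, was high in NSF-CiHeps replicate 3, at 19.4, 13.9 and 135 CPM in NSF-CiHeps and 21.98, 7.01, 15.01 and 14.97 CPM in C6FAE-C6F(L) (log2 fold change 1.93, adjusted p = 0.00617), and at 0.18 without it. Of 23 cAMP and immediate early genes, 3 were higher and 5 lower, near the shares of all genes tested (8.85% and 15.7%). Ppargc1a, a coactivator of fasting genes, was at 27.8, 18.1 and 14.9 CPM in NSF-CiHeps and 3.24, 1.07, 1.86 and 3.15 CPM in C6FAE-C6F(L) (log2 fold change 3.11 ± 0.31, adjusted p = 5.1e-07). Fos, an immediate early factor, was at 27.6, 29.95 and 35.6 CPM in NSF-CiHeps and 92.9, 127, 89.03 and 122 CPM in C6FAE-C6F(L) (log2 fold change -1.79, adjusted p = 9.0e-06). The count of higher members was 5 without NSF-CiHeps replicate 2 or without C6FAE-C6F(L) replicate 4. Of 19 glucocorticoid response genes, 2 were higher and 6 lower (4 higher without C6FAE-C6F(L) replicate 1). Sgk1, a kinase of salt transport, was at 576, 966 and 980.4 CPM in NSF-CiHeps and 543, 233, 256 and 260.1 CPM in C6FAE-C6F(L) (log2 fold change 1.38, adjusted p = 1.4e-04). Pdk4, which restrains pyruvate oxidation, was at 5.92, 8.105 and 11.4 CPM in NSF-CiHeps and 106, 38.05, 37.5 and 39.7 CPM in C6FAE-C6F(L) (log2 fold change -2.71, adjusted p = 4.5e-06). Klf9, a zinc finger factor, was at 37.1, 24.6 and 39.9 CPM in NSF-CiHeps and 133, 96.3, 100.1 and 70.3 CPM in C6FAE-C6F(L) (log2 fold change -1.56, adjusted p = 1.7e-06).

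Stress response genes were higher in 7 of 21 members tested and lower in 0, with a median of 0.57. The members named first supply glutathione and thioredoxin, the thiol buffers that the factor Nrf2 is known to control. Gclm, a subunit of the enzyme that starts glutathione synthesis, was at 314, 281 and 217 CPM in NSF-CiHeps and 72.7, 54.98, 55.8 and 60.1 CPM in C6FAE-C6F(L) (log2 fold change 2.15 ± 0.12, adjusted p = 1.4e-09). Slc7a11, the cystine importer, was at 527, 419.8 and 288 CPM in NSF-CiHeps and 179.5, 83.1, 71.5 and 84.3 CPM in C6FAE-C6F(L) (log2 fold change 1.98 ± 0.26, adjusted p = 1.0e-05). Srxn1, which repairs oxidised peroxiredoxins, was at 259, 261 and 256 CPM in NSF-CiHeps and 78.7, 75.996, 91.4 and 55.97 CPM in C6FAE-C6F(L) (log2 fold change 1.78 ± 0.12, adjusted p = 7.0e-09). Txnrd1, thioredoxin reductase, was at 678, 537 and 481 CPM in NSF-CiHeps and 229, 217, 217 and 197 CPM in C6FAE-C6F(L) (log2 fold change 1.39 ± 0.10, adjusted p = 2.4e-08). For all 4 genes, named for their wide rises, every NSF-CiHeps library lay above every C6FAE-C6F(L) library. Without overlap were 12 of the 21 members, against 38.2% of all genes tested. C6F5UE-C6F(L)V, with the same compounds as NSF-CiHeps, averaged 186 CPM for Gclm, 199 CPM for Slc7a11, 62.4 CPM for Srxn1 and 210.5 CPM for Txnrd1. The last 2 values lay within or close to the range of C6FAE-C6F(L).

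The promoters of Gclm and Txnrd1 are shown for the letters TGACNNNGC, the core of the antioxidant response element. The bases are the 250 before a RefSeq transcription start on GRCm38.p6, 5′ to 3′ on the strand of the gene, and capitals mark matches on either strand.
Gclm (chr3:122245307-122245556, plus strand): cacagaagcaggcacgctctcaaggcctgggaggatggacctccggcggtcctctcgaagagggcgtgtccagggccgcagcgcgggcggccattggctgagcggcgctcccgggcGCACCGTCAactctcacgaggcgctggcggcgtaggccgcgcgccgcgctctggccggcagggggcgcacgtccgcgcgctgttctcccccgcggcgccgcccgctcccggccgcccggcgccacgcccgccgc
Txnrd1 (chr10:82858956-82859205, plus strand): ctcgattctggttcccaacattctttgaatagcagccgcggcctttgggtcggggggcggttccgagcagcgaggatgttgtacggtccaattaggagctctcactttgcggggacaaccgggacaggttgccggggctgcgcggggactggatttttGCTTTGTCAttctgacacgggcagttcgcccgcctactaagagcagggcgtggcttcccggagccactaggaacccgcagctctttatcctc
Of the stress genes, 20 had a RefSeq window (250 bases before to 50 after a start, with 1 or more starts per gene) and 8 of these held a match, among them 4 of the 7 genes called higher. Of all 27025 genes with a window, 3781 (13.991%) held one. A match describes letters in the window and is not evidence of a bound site.

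Interferon response genes were lower in 15 of 26 members tested and higher in 1, with a median of -1.23. The count lower was 8 without NSF-CiHeps replicate 3 and 8 in the 7 libraries alone. Ifit1, which binds viral RNA, was at 1.4995, 1.498 and 1.91 CPM in NSF-CiHeps and 11.3, 18.4, 22.5 and 11.7 CPM in C6FAE-C6F(L) (log2 fold change -3.27 ± 0.46, adjusted p = 1.7e-05). Isg15, a ubiquitin-like modifier, was at 1.42, 2.82 and 1.12 CPM in NSF-CiHeps and 8.41, 26.1, 14.5 and 13.6 CPM in C6FAE-C6F(L) (log2 fold change -3.14 ± 0.45, adjusted p = 2.0e-05). Ifi44 was at 0.631, 0.617 and 0.398 CPM in NSF-CiHeps and 7.62, 15.2, 13.98 and 5.87 CPM in C6FAE-C6F(L) (log2 fold change -4.25, adjusted p = 5.5e-06). Xaf1, a regulator of apoptosis, was at 1.58, 3.08 and 2.63 CPM in NSF-CiHeps and 12.96, 13.7, 13.5 and 18.03 CPM in C6FAE-C6F(L) (log2 fold change -2.58, adjusted p = 1.5e-07). These 4 were named for their wide falls, and none overlapped between the groups. Without overlap were 13 of the 26 members, against 38.2% of all genes tested. The means of the 4 in C6F5UE-C6F(L)V were between 23.8 and 57.4 CPM. Mx1, an antiviral GTPase, was the exception, at 16.4, 48.7 and 13.9 CPM in NSF-CiHeps and 2.102, 5.45, 1.58 and 10.2 CPM in C6FAE-C6F(L) (log2 fold change 2.44 ± 0.57, adjusted p = 0.00185).

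The promoters of Isg15 and Ifit1 show a core of the interferon-stimulated response element, GAAA, any 2 bases and GAAA again, with capitals as above. Overlapping matches run together in Isg15.
Isg15 (chr4:156200819-156201068, minus strand): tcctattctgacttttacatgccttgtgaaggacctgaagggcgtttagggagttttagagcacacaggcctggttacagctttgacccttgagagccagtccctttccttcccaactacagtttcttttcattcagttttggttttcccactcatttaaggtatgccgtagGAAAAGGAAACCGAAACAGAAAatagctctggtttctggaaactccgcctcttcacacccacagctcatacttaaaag
Ifit1 (chr19:34640639-34640888, plus strand): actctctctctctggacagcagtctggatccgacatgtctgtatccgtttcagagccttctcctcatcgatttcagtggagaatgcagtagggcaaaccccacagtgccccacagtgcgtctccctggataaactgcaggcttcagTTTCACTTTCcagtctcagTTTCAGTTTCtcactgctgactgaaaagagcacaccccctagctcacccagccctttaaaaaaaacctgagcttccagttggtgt
Among the 26 listed genes, 20 had a window and 13 of these (65.0%) held a match, against 1079 of 27025 genes (3.993%). Of the 13, 6 were called lower and 7 were not called.

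Imprinted genes, expressed from 1 parental allele, were lower in 17 of 37 members tested and higher in 7 (4 higher in the 7 libraries alone). H19, a noncoding RNA of fetal tissue, was at 168, 131 and 84.6 CPM in NSF-CiHeps and 7724, 2294, 1970.2 and 1695 CPM in C6FAE-C6F(L) (log2 fold change -4.74 ± 0.48, adjusted p = 6.4e-07). Igf2, the growth factor next to H19, was at 0.316, 0.176 and 0.558 CPM in NSF-CiHeps and 435, 106, 71.6 and 97.6 CPM in C6FAE-C6F(L) (log2 fold change -8.92 ± 0.79, adjusted p = 2.1e-07). C6FAE-C6F(L) replicate 1 held the highest value of both, and the groups did not overlap. Dio3, which inactivates thyroid hormone, was higher at 153, 57.3 and 406 CPM in NSF-CiHeps and 9.28, 4.96, 3.92 and 4.93 CPM in C6FAE-C6F(L) (log2 fold change 5.15 ± 0.47, adjusted p = 1.8e-07). Dio3 and Dlk1, which lie in the same imprinted cluster, thus differed in opposite directions. Usp29, a ubiquitin protease gene, was at 12.9, 17.3 and 34.7 CPM in NSF-CiHeps and 6.31, 1.65, 2.52 and 2.64 CPM in C6FAE-C6F(L) (log2 fold change 2.71, adjusted p = 6.1e-05). Of 29 listed germline genes, which G9a and other repressors are known to keep silent, 5 passed the filter on low counts. Among these, 4 were lower and 0 higher (2 lower with the stricter filter or in the 7 libraries alone). With no filter 21 were tested, 1 was higher and 4 lower, and the median log2 fold change was 0.0. A gene low in NSF-CiHeps can pass the filter only through other groups, so the direction of these 5 says little about the list. Stag3, a meiotic cohesin subunit, was at 1.97, 1.06 and 0.796 CPM in NSF-CiHeps and 3.85, 18.8, 30.3 and 1.62 CPM in C6FAE-C6F(L) (log2 fold change -3.40, adjusted p = 0.00153). All 5 germline genes tested had an unadjusted p below 0.05 in edgeR, against 9943 of all 18605 genes, and DESeq2 called 3.

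Of the 5 sex-linked transcripts tested, edgeR and DESeq2 called 0. An unadjusted p below 0.05 in edgeR was found for 0, against 9943 of all 18605 genes tested. Xist, the RNA of the inactive X, was at 54.8, 446 and 353 CPM in NSF-CiHeps and 746, 190.3, 346 and 604 CPM in C6FAE-C6F(L), and the Y-linked helicase Ddx3y at 53.5, 14.9 and 33.1 CPM in NSF-CiHeps and 16.2, 84.3, 61.8 and 19.7 CPM in C6FAE-C6F(L). Another Y-linked gene, Eif2s3y, was at 73.3, 28.3 and 44.05 CPM in NSF-CiHeps and 13.4, 95.4, 67.96 and 18.5 CPM in C6FAE-C6F(L). All 7 libraries held both Xist and Y-linked RNA.

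Genes of other cell types were counted too, beside shares over all genes tested of 8.85% called higher and 15.7% lower. Of 22 macrophage genes tested, 3 were higher and 3 lower (0 higher in the 7 libraries alone, and 1 without NSF-CiHeps replicate 2 or C6FAE-C6F(L) replicate 2). C1qa, C1qb and Adgre1 had no counts in any of the 7 libraries, and Csf1r was between 1.10 and 2.98 CPM. The summed level of the macrophage list was 101 to 207 CPM in NSF-CiHeps and 144 to 367 CPM in C6FAE-C6F(L). The lysosomal gene Cd68, found in macrophages and many other cells, was lower at 11.05, 9.16 and 6.93 CPM in NSF-CiHeps and 48.3, 117, 108 and 6.38 CPM in C6FAE-C6F(L) (log2 fold change -2.95, adjusted p = 4.6e-04). Of 16 endothelial genes, 3 were lower (6 without NSF-CiHeps replicate 1) and 0 higher. In the main fit, the macrophage and endothelial counts thus lay near the shares of all genes. The VEGF receptor Flt1 was at 0.316, 0.4405 and 0.558 CPM in NSF-CiHeps and 26.8, 16.2, 13.5 and 33.9 CPM in C6FAE-C6F(L) (log2 fold change -5.66, adjusted p = 1.4e-07), while Pecam1 was at 0.0789 to 0.487 CPM in the 7 libraries. The endothelial sum was 13.7 to 89.4 CPM in NSF-CiHeps and 64.5 to 134 CPM in C6FAE-C6F(L). Of 16 genes of hepatic stellate cells and pericytes, 9 were lower and 1 higher, and the sum was 748 to 1420.3 CPM in NSF-CiHeps and 1077 to 4338 CPM in C6FAE-C6F(L). Most of it was Ecm1, a secreted matrix protein also made by keratinocytes, at 1234, 1400.5 and 707 CPM in NSF-CiHeps and 2106, 4126, 3604 and 857 CPM in C6FAE-C6F(L) (log2 fold change -1.26, adjusted p = 0.00752, and adjusted p = 0.104 in the fit to the 7 libraries alone). Notch3 was at 45.6, 7.49 and 10.6 CPM in NSF-CiHeps and 138, 192, 213 and 167 CPM in C6FAE-C6F(L) (log2 fold change -3.06, adjusted p = 2.1e-05). The higher member, Reln, was not called without NSF-CiHeps replicate 3 (adjusted p = 0.0981). In the 7 libraries alone 5 of this list were lower and 0 higher.

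Of 17 genes of melanocytes, Schwann cells and neurons, 8 were lower and 1 higher (4 and 0 in the 7 libraries alone). Erbb3, a neuregulin receptor also used by epithelia, was at 37.96, 29.2 and 30.7 CPM in NSF-CiHeps and 162, 269, 236 and 71.1 CPM in C6FAE-C6F(L) (log2 fold change -2.50, adjusted p = 3.9e-06), whereas Sox10, the defining factor, was at 2.89 CPM or less, with no counts in NSF-CiHeps and at least 16-fold lower. Of 13 muscle genes, 4 were lower. Tnnt2, a troponin, was at 3.63, 2.995 and 1.27 CPM in NSF-CiHeps and 5.78, 22.5, 14.7 and 6.55 CPM in C6FAE-C6F(L) (log2 fold change -2.23, adjusted p = 0.00271), and Myod1 and Myog were at 0.170 CPM or less. Of 11 adipocyte genes, 2 were lower (1 without NSF-CiHeps replicate 3, without C6FAE-C6F(L) replicate 4 or in the 7 libraries alone, and 1 higher without NSF-CiHeps replicate 3). Adipoq and Plin1 were at 0.239 CPM or less, while Cidea, a lipid droplet protein, was at 3.08, 4.05 and 1.91 CPM in NSF-CiHeps and 18.4, 72.7, 31.7 and 3.91 CPM in C6FAE-C6F(L) (log2 fold change -3.39, adjusted p = 4.5e-04). Of 17 cartilage and bone genes, 2 were lower and 1, Sox9, was higher. These counts and those of the adipocyte genes lay near the shares of all genes tested, 15.7% lower and 8.85% higher. Sox9, which also marks biliary and intestinal progenitors, was at 47.99, 55.3 and 90.9 CPM in NSF-CiHeps and 17.95, 31.1, 14.3 and 31.6 CPM in C6FAE-C6F(L) (log2 fold change 1.45 ± 0.27, adjusted p = 2.5e-04). Without NSF-CiHeps replicate 1 or 3 or C6FAE-C6F(L) replicate 2 or 4, 2 members of that list were higher, and without C6FAE-C6F(L) replicate 3, 1 was lower. Of 14 hair follicle and sebaceous genes, 3 were lower, and the sum was 503 to 657 CPM in NSF-CiHeps and 779 to 1104 CPM in C6FAE-C6F(L). Of 3 erythroid genes, Hba-a1 was higher at 32.9, 23.7 and 11.3 CPM in NSF-CiHeps and 0.3503, 0.195, 0 and 2.89 CPM in C6FAE-C6F(L) (log2 fold change 4.67, adjusted p = 1.9e-04). The part of such cells in the results above was not tested.

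**Figure D4:**
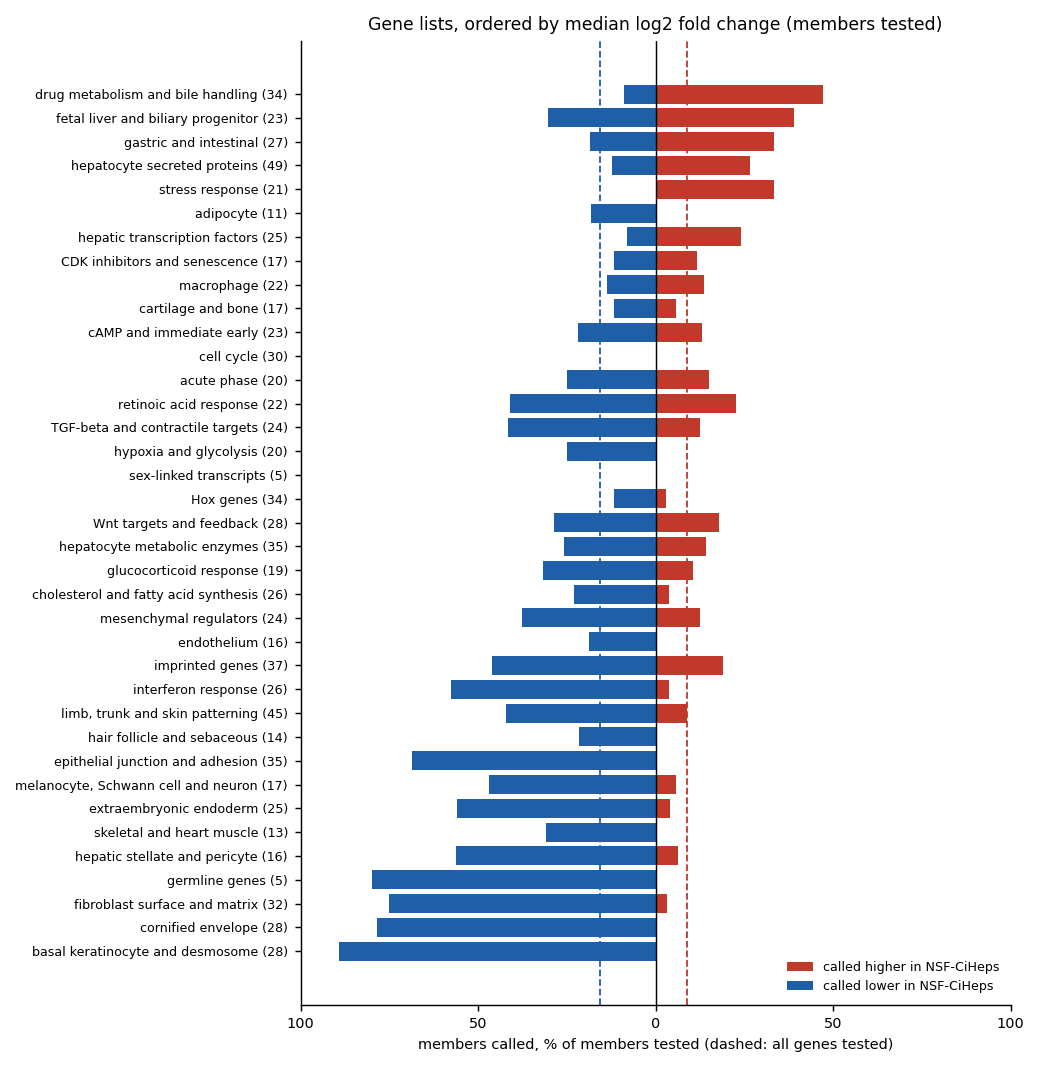
Share of tested members called higher (right, red) and lower (left, blue) in NSF-CiHeps for 37 gene lists, as a percentage of members tested, ordered by median log2 fold change. Dashed lines give the shares over all genes, 8.85% higher and 15.7% lower, and basal keratinocyte genes, at the bottom, are lower in 25 of 28.

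Cell cycle genes did not pass the call in any of 30 tested, by edgeR or by DESeq2 (1 was lower without C6FAE-C6F(L) replicate 4). An unadjusted p below 0.05 in edgeR was found for 11 of the 30, against 9943 of all 18605 genes tested. Top2a, which untangles replicated DNA, was at 152, 97.9 and 122 CPM in NSF-CiHeps and 118, 163, 164 and 98.9 CPM in C6FAE-C6F(L), and Rrm2, which makes deoxynucleotides, at 111, 139 and 102 CPM in NSF-CiHeps and 122, 149, 123 and 129 CPM in C6FAE-C6F(L). Both overlapped between the groups. Of 17 CDK inhibitor and senescence genes, 2 were higher and 2 lower, near the shares of all genes tested (8.85% and 15.7%). Cdkn1c, an imprinted CDK inhibitor, was at 15.1, 11.4 and 3.74 CPM in NSF-CiHeps and 94.8, 213, 105 and 67.3 CPM in C6FAE-C6F(L) (log2 fold change -3.57 ± 0.39, adjusted p = 1.4e-06). Gdf15, a secreted stress hormone, was higher at 289, 232 and 59.7 CPM in NSF-CiHeps and 11.7, 36.9, 8.67 and 11.7 CPM in C6FAE-C6F(L) (log2 fold change 3.49 ± 0.46, adjusted p = 9.6e-06). Lmnb1, a nuclear lamin, was at 44.6, 26.1 and 33.9 CPM in NSF-CiHeps and 57.1, 101, 98.7 and 42.7 CPM in C6FAE-C6F(L) (log2 fold change -1.10, adjusted p = 0.00113). The lysosomal galactosidase Glb1 was at 68.03, 79.8 and 87.6 CPM in NSF-CiHeps and 46.6, 32.8, 32.4 and 43.8 CPM in C6FAE-C6F(L) (log2 fold change 1.01, adjusted p = 6.3e-06). Both sat at the edge of the call. Glb1 fell under a log2 fold change of 1 in 8 of 14 alternatives (0.88 to 0.999), among them without NSF-CiHeps replicate 2 or 3 and without C6FAE-C6F(L) replicate 2 or 3. Lmnb1 did so without NSF-CiHeps replicate 2 and without C6FAE-C6F(L) replicate 2 or 3 (-0.985 to -0.962), so that 1 of the list was then lower without either of the latter.

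Acute phase genes were higher in 3 of 20 members tested and lower in 5 (5 higher without NSF-CiHeps replicate 1, and 1 higher without C6FAE-C6F(L) replicate 3). Serpina3n, a protease inhibitor, was at 0.158, 6.25 and 17.2 CPM in NSF-CiHeps and 524, 253, 185 and 407 CPM in C6FAE-C6F(L) (log2 fold change -5.44 ± 0.72, adjusted p = 1.0e-05). Saa3, a serum amyloid protein, was at 0.395, 2.03 and 1.59 CPM in NSF-CiHeps and 81.97, 28.2, 44.8 and 21.7 CPM in C6FAE-C6F(L) (log2 fold change -5.05, adjusted p = 7.8e-06). Lbp, which binds bacterial lipopolysaccharide, was higher at 285, 369.8 and 791 CPM in NSF-CiHeps and 164, 89.03, 78.4 and 119 CPM in C6FAE-C6F(L) (log2 fold change 2.10, adjusted p = 8.4e-06). Crp was called higher (log2 fold change 3.24, adjusted p = 0.0287) on NSF-CiHeps replicate 2, at 0.789, 21.1 and 0.239 CPM in NSF-CiHeps and 2.102, 0, 0.466 and 0.425 CPM in C6FAE-C6F(L), and was at -0.61 without it. Of 26 genes of cholesterol and fatty acid synthesis, 1 was higher and 6 lower, with 2 lower without C6FAE-C6F(L) replicate 4. Dhcr7, the last enzyme of cholesterol synthesis, was at 31.02, 28.9 and 22.5 CPM in NSF-CiHeps and 55.96, 84.9, 91.5 and 61.7 CPM in C6FAE-C6F(L) (log2 fold change -1.42 ± 0.15, adjusted p = 1.1e-06). Me1, which makes NADPH for fatty acid synthesis, was higher at 212, 221 and 255 CPM in NSF-CiHeps and 60.1, 80.8, 99.7 and 137 CPM in C6FAE-C6F(L) (log2 fold change 1.28, adjusted p = 2.5e-05). Of 20 hypoxia and glycolysis genes, 5 were lower and 0 higher (3 lower without C6FAE-C6F(L) replicate 2). Adm, the vasodilator adrenomedullin, was at 1.74, 2.995 and 1.35 CPM in NSF-CiHeps and 147, 127, 84.4 and 111 CPM in C6FAE-C6F(L) (log2 fold change -5.86 ± 0.30, adjusted p = 3.9e-10). Pfkfb3, which speeds glycolysis, was at 34.02, 15.2 and 15.1 CPM in NSF-CiHeps and 64.9, 155, 92.9 and 39.9 CPM in C6FAE-C6F(L) (log2 fold change -2.04, adjusted p = 3.8e-04).

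Some genes separated the deposited tables in every library. Each group lies in a single table, so the table cannot be told apart from the groups, their cells or their compounds. Rpl29, a ribosomal protein gene among the 12 widest rises, was at 350.4, 521 and 371 CPM in NSF-CiHeps and 1.401, 2.24, 2.797 and 1.62 CPM in C6FAE-C6F(L). In all 13 libraries of the table that holds C6FAE-C6F(L) and MEF it was between 0.528 and 2.90 CPM, and in the 8 libraries of the other tables between 316 and 537 CPM. Named after their values were seen, Rpl34 lay between 4.22 and 16.1 CPM in the former and between 177 and 1155 CPM in the latter, and Rpl21 between 3.60 and 6.62 CPM and between 90.8 and 247 CPM. Over all genes tested, 6 (Rpl29, Rpl34, Rpl21, Rpl21-ps8, Trim12a and Nr1h4) were more than 8-fold higher in every library of the other tables than in any of the MEF table, with levels under 0.5 CPM set to 0.5. In the opposite direction 30 genes did so, among them Col1a1, Prrx1, Dlk1 and Myh11, and the processed pseudogenes Rps2-ps10, Gm13394 and Gm4864. Trim12a, a TRIM family protein, was at 8.68, 12.1 and 9.399 CPM in NSF-CiHeps and 0, 0.195, 0 and 0 CPM in C6FAE-C6F(L), a ratio of 220.4 (exact 95% interval 60.6 to 1827) from 2 counts in C6FAE-C6F(L). Ifi202b, an interferon-inducible DNA-binding protein, had no counts in NSF-CiHeps and 174, 355, 168 and 156 CPM in C6FAE-C6F(L), at least 2559-fold lower. It was also without counts in C6F5UE-C6F(L)V, at 37.5 and 38.4 CPM in pHeps, and between 14.8 and 381 CPM in all libraries of the MEF table. Ribosomal protein genes have many near-identical pseudogene copies, and how the counting assigned reads that fit several copies is not stated in the sources used. The same limit holds for the named genes with close relatives, among them Krt6b, Reg3b and Reg3g, Cyp2c29, Cyp3a11, Serpina1a, Serpina3n, Hba-a1 and Lyz1. The remaining genes named among the 12 widest rises were Adh6a, an alcohol dehydrogenase, at 25.6, 7.66 and 3.98 CPM in NSF-CiHeps and 0.175, 0.0973, 0.0932 and 0 CPM in C6FAE-C6F(L), Palmd, a palmdelphin, at 9.63, 27.4 and 5.098 CPM in NSF-CiHeps and 0.525, 0.292, 0.186 and 0.595 CPM in C6FAE-C6F(L), and Otop3, a proton channel, at 0.395, 41.8 and 14.7 CPM in NSF-CiHeps and 0, 0.389, 0.186 and 0.255 CPM in C6FAE-C6F(L).

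**Figure D5:**
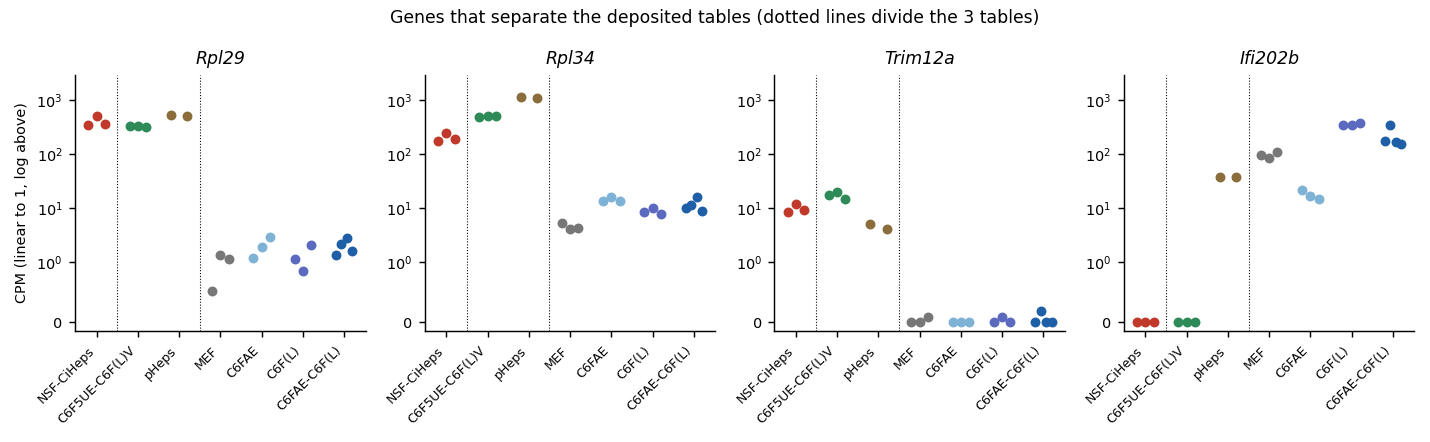
Expression of 4 genes in all 21 libraries (vertical axis, CPM, linear up to 1 and logarithmic above; each point a library), with dotted lines between the 3 deposited tables. Rpl29, Rpl34 and Trim12a are low in all 13 libraries of the MEF table, while Ifi202b has no counts in NSF-CiHeps and C6F5UE-C6F(L)V.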

How the data were processed

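Counts per gene from 21 poly-A RNA-seq libraries were deposited by the authors in 3 tables, joined here by gene ID. Reads had been aligned with HISAT2 to GRCm38 (mm10), per the submitters' processing notes. The counting tool, its strand setting and its treatment of reads with several matches are not stated in the sources used. The deposited FPKM values were used only to check, in the 7 libraries compared, that columns match the counts. No per-sample column of the tables used was left without a sample.

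All 21 libraries in 7 groups were fitted in edgeR 4.0.16 (R 4.3.3) with TMM scaling, a filter of 10 counts (filterByExpr) and the quasi-likelihood F test, so that all groups share 1 estimate of the spread (14 residual degrees of freedom). P-values were adjusted over 18605 genes by Benjamini-Hochberg. CPM are counts over the TMM-scaled library size. The SE of a log2 fold change is its size divided by the square root of the F statistic, and 95% intervals use it with a t quantile. Intervals for ratios of counts and floors of 3 counts cover counting error only.

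The groups, the 38 gene lists and the tests were chosen with earlier results of these data known, so no p-value is given for a list. The text names 16 marker genes, the 12 called genes with the largest change in each direction (at 10 CPM or more and without overlap), and up to 4 called members per list and direction (at 5 CPM or more). It also names Hox genes tested, the most abundant 2 members of lists without calls, and cell type markers. Rpl34, Rpl21 and the genes listed with them were chosen after their values were seen. A few genes that these rules name are not reported here. Alternatives were other scaling and filters, DESeq2 1.42.0, the 7 libraries alone, a replicate block and leaving out each library. The scripts were tested on simulated data.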

Additional observations from a re-analysis of the deposited data

Results flagged for a closer look

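In the 4 C6FAE-C6F(L) libraries, 29 named genes and 1 library measure had a library far from the others. The screen took the 228 named genes, less those low in all 4 libraries, and the library measures. The value in parentheses is the gap from that library to its nearest neighbour, divided by the range of the group, and all values given pass the 95% critical value of Dixon's test. Chance passes about 1 group in 20, and groups of 3 were not tested.

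Replicate 4 was the far library for Col1a1 (0.873), Col1a2 (0.853), Col6a3 (0.922), Ctgf (0.883), Egr2 (0.906), Idi1 (0.910), Klk10 (0.874), Krt14 (0.856), Onecut2 (0.886), Spink5 (0.970), Tpm1 (0.834), Tubb3 (0.833) and Xaf1 (0.850). It held the highest value for all of these genes, among them collagens, and the keratinocyte genes Krt14, Klk10 and Spink5. Replicate 1 was the far library for Dlk1 (0.896), H19 (0.901), Igf2 (0.906), Lyz1 (0.882), Mt1 (0.903), Pdk4 (0.967), Serpina3m (0.879), Sgk1 (0.913), Slc7a11 (0.882), Srgn (0.866), Tgm2 (0.850) and Tspan8 (0.837). It was the highest library for the imprinted genes Dlk1, H19 and Igf2 as well as for the others. Replicate 2 was the far library for Gdf15 (0.891), Ifi202b (0.909), Muc3 (0.866) and Ngfr (0.836) and was the highest for all of these but Ngfr, for which it was the lowest. The share of counts on Gm23935 was highest in replicate 4 (0.948).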

How the results depend on the processing

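The fit to the 7 libraries alone called 1042 genes higher and 1939 lower, of which 1040 and 1902 were also called in the fit to all 21. It tested fewer genes, had fewer libraries to estimate the spread, and took that spread from the 2 compared groups only. For Col1a1 the adjusted p of the edgeR F test was 0.0104 there and 1.2e-05 in the fit to all 21. The other scalings, filters and DESeq2 gave 1417 to 1705 higher and 2375 to 3089 lower. Leaving out each library in turn gave 1280 to 1836 higher and 2635 to 3007 lower. Same-numbered replicates did not deviate together (correlations -0.196, -0.165 and -0.0715), and for other pairs the correlations ran from -0.0238 to 0.168. With 3 replicates compared per group, this check cannot decide whether the numbers pair the samples. The fit with the replicate block called 1839 higher and 2859 lower. Only C6FAE-C6F(L) has a replicate 4, so the block takes up that library. This fit is thus not independent of leaving it out, which called 1836 higher and 3007 lower. Of 228 named genes, 182 kept direction and call under every alternative that tested them. DESeq2 gave no adjusted p for Car1, Col1a1, Col1a2, Col6a3 and Tgfbi, which are left out of that count for DESeq2. The 7 libraries alone lost 28 calls, the most of any setting. Leaving out single libraries took the log2 fold changes of Crp from -0.605 to 4.536, of Reg3g from -0.403 to 7.235 and of Serpina1a from -0.371 to 3.930, with the reversed values from leaving out NSF-CiHeps replicate 2, the library that holds their high counts. The cause of the other changes was not tested. Depth limits the genes with few counts in a group, for which bounds or counting intervals are given.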
